A study of Mus musculus with 43 samples.

Results

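The 8 genes described here are Stab1, Stab2, Lyve1, Mrc1, Gpr182, Oit3, Fcgrt and Maf, a set known from the sinusoidal endothelium of liver and other organs and followed here in cells of the mouse yolk sac. They were taken by name from 23154 gene rows of the stage tables and 24411 gene rows of the sorted tables, and each had a row in every table. They were picked with results by stage and by sort of these same data in view, so those values are given as descriptions, without a test of any of the 8 genes. Lyve1, Stab1, Stab2, Mrc1, Gpr182 and Fcgrt encode receptors, whereas Oit3 encodes a zona pellucida domain protein and Maf a transcription factor.

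The study asked how arterial identity of yolk sac endothelium relates to lymphoid potential, and its 43 samples were single-cell libraries of polyadenylated mouse RNA made with the STRT method, in which hand-picked cells receive a cell barcode during reverse transcription. The 40 stage libraries, labelled as endothelial cells of the yolk sac, comprised 2 at E8.0, 10 at E8.5, 9 at E9.0, 10 at E9.5 and 9 at E10.0, and held 478 cells. The other 3 samples were sorted Gja5+Cd44+ and Gja5-Cd44+ yolk sac (YS) cells and Gja5+Cd44+ cells labelled CR, with 50, 36 and 44 cells. The labels name no strain, genotype or treatment, do not spell out CR, give no stage for the sorted cells and do not say which libraries shared embryos, so a p-value measures the spread between libraries, which may be technical.

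Sinusoidal endothelial cells line wide, leaky capillaries and take up waste macromolecules from blood by receptor-mediated endocytosis, most of it through clathrin-coated pits that lead to endosomes and lysosomes. The stabilins and the mannose receptor are the classical scavenger receptors of liver sinusoids, and they clear hyaluronan, collagen fragments and glycoproteins with exposed mannose. The yolk sac has the first vessels of the embryo, and its endothelium gives rise to early waves of blood cells, some through an intermediate that expresses Runx1.

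The start of each gene is shown for the 4 members that have a promoter window in RefSeq (build GRCm38.p6), because the 8 genes were found together in single cells, as described below. Each line gives the 250 bases before the RefSeq start site, 5′ to 3′ on the strand of the gene. The windows are at chr14:31168642-31168891 on the minus strand for Stab1, at chr10:87007943-87008192 on the minus strand for Stab2, at chr2:14229164-14229413 on the plus strand for Mrc1 and at chr7:45103823-45104072 on the minus strand for Fcgrt. Capitals mark matches to any of 3 letter strings searched on both strands, the MAF string TGCTGA, the ETS string AGGAAG and the GATA string AGATAA.
Stab1: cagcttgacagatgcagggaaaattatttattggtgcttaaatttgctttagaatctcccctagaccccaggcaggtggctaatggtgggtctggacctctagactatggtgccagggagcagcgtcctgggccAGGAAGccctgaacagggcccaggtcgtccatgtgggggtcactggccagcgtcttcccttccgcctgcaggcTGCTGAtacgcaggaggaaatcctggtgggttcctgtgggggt
Stab2: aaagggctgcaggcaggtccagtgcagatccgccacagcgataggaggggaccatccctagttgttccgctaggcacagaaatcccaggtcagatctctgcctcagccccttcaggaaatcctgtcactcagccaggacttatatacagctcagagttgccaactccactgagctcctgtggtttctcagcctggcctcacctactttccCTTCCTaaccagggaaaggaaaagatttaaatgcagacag
Mrc1: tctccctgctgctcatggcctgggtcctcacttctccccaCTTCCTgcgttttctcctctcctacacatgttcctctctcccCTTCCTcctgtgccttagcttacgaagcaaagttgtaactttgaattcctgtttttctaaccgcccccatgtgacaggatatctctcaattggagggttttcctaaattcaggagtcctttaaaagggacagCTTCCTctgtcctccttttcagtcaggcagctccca
Fcgrt: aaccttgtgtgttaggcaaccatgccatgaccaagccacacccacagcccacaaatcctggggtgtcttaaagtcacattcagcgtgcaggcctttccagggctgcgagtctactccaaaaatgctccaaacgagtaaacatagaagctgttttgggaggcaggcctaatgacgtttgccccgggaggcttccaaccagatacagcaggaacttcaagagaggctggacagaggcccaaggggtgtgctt
Stab1 had an ETS string that begins 116 bases before the start site and a MAF string 43 bases before it. Stab2 had an ETS string on the opposite strand 40 bases before the RefSeq start site. That string lies inside the Stab2 gene at its GENCODE position given below, where the start site differs. Mrc1 had 3 ETS strings on the opposite strand, 210, 168 and 36 bases before the RefSeq start site, and the Fcgrt window had none of the 3 strings. Among 32851 mouse promoter windows of 300 bases, 16.1% held the MAF string, 29.5% the ETS string and 9.99% the GATA string. In GENCODE M21 on GRCm38 the genes lie at chr14:31139013-31168641 (Stab1), chr10:86841198-87008025 (Stab2), chr7:110850607-110863239 (Lyve1), chr2:14229392-14332057 (Mrc1), chr10:127747276-127751732 (Gpr182), chr10:59422958-59441778 (Oit3), chr7:45092990-45103851 (Fcgrt) and chr8:115682942-115707794 (Maf), with Mrc1 on the plus strand and the other 7 on the minus strand.

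The libraries held blood cells beside endothelium. Cdh5, which encodes VE-cadherin, reached 10 CPM (counts per 1e6 counts of the cell or sum) in 418 of the 478 stage cells, and values below are CPM of counts summed over these Cdh5-expressing cells in each library with 3 or more of them, 37 libraries in all. In such sums, fewer cells of a type and less RNA per cell cannot be told apart. Blood genes were still present: the summed erythroid markers had a median of 5408 CPM at E8.5 and 146 CPM at E10.0, the macrophage markers 171 and 26.4 CPM, and the megakaryocyte markers 383 and 111 CPM. A stricter set, the Cdh5-expressing cells with blood marker genes, among them Ptprc, Spi1 and Gp9, each under 10 CPM, held 22, 67, 57, 53 and 80 cells from E8.0 to E10.0 and is called the blood-low cells. Library totals ran from 2172087 to 42245455 counts, and no cell name occurred in more than 1 library (0 shared names). At E10.0, 1 library stood apart in these genes, replicate 4 with 6 cells. The overlap of E10.0 with E8.5 and the fitted differences between them in Cdh5-expressing cells are given with and without it. Shares of cells, correlations, blood-low values and counts over other gene lists at E10.0 include it.

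All 8 genes had their highest library median at E10.0 and reached it by different routes. Fcgrt and Stab2 differed most between E8.5 and E10.0, Oit3 and Lyve1 least, and Oit3 and Lyve1 were already at 136 CPM or more at E8.0. The middle stages, E9.0 and E9.5, spread over the whole range from near 0 to E10.0-like levels. At E9.0 the low and high libraries carried different batch titles, as given below.

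Stab2, the hyaluronan clearance receptor of liver sinusoids, was at 25.0 and 69.2 CPM in the E8.0 libraries, from 8.18 to 229 CPM (median 68.6) at E8.5, from 0.152 to 732 CPM (316) at E9.0, from 0 to 1050 CPM (87.7) at E9.5 and from 30.7 to 2774 CPM (1521) at E10.0. The E8.5 libraries were all low, and at E10.0 only replicate 4 lay within their range. Stab1, a scavenger receptor that binds SPARC and also sorts chitinase-like proteins inside the cell, was at 42.2 and 61.7 CPM at E8.0, from 16.99 to 98.2 CPM (61.2) at E8.5, from 1.22 to 267 CPM (80.0) at E9.0, from 1.21 to 380 CPM (37.6) at E9.5 and from 207 to 797 CPM (410) at E10.0. Stab1 was the only one of the 8 genes whose E10.0 libraries, replicate 4 included, all lay above every E8.5 library. Of all genes, 1.63% had E10.0 above E8.5 with no overlap.

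Lyve1, a hyaluronan receptor best known as a marker of lymphatic endothelium, was at 224 and 405 CPM at E8.0, from 215 to 1769 CPM (524) at E8.5, from 0.152 to 2641 CPM (866) at E9.0, from 4.595 to 2144 CPM (270) at E9.5 and from 1.76 to 3593 CPM (2971) at E10.0. Its E8.5 and E10.0 libraries overlapped even without replicate 4, at 1768 CPM in the lowest of the other 8. Mrc1, the mannose receptor of macrophages and sinusoidal endothelium, was at 72.3 and 108 CPM at E8.0, from 24.2 to 198 CPM (64.9) at E8.5, from 0.304 to 459 CPM (172) at E9.0, from 0 to 750 CPM (56.3) at E9.5 and from 1.01 to 940 CPM (579) at E10.0. Without replicate 4 its E10.0 libraries began at 299 CPM, above every E8.5 library.

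Gpr182, an atypical chemokine receptor of endothelium, was at 9.72 and 10.3 CPM at E8.0, from 19.6 to 188 CPM (44.5) at E8.5, from 0.304 to 626 CPM (91.8) at E9.0, from 0 to 540 CPM (14.8) at E9.5 and from 14.9 to 507 CPM (262) at E10.0. Both E8.0 libraries lay below every E8.5 library, and the fitted log2 difference of E8.5 over E8.0 was 2.62 (SE 1.67). With 2 libraries and no share of all genes counted, nothing is read from this separation. The E10.0 libraries overlapped E8.5 with or without replicate 4. Fcgrt, the heavy chain of the neonatal Fc receptor that rescues IgG and albumin from lysosomes, was at 6.17 and 8.43 CPM at E8.0, from 0 to 62.3 CPM (10.9) at E8.5, from 0 to 394 CPM (71.8) at E9.0, from 0 to 337 CPM (12.7) at E9.5 and from 2.77 to 676 CPM (501) at E10.0. The other 8 libraries at E10.0 had 322 CPM or more of Fcgrt, above every E8.5 library.

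Oit3, a zona pellucida domain protein known from liver, was at 136 and 158 CPM at E8.0, from 33.1 to 277 CPM (60.4) at E8.5, from 0.304 to 300 CPM (130) at E9.0, from 0.967 to 374 CPM (23.3) at E9.5 and from 75.3 to 403 CPM (267) at E10.0. Its E8.0 libraries lay inside the E8.5 range and its E10.0 range overlapped that of E8.5. Maf, which encodes the bZIP transcription factor c-Maf, was at 62.2 and 72.8 CPM at E8.0, from 12.1 to 94.8 CPM (30.7) at E8.5, from 0.152 to 161 CPM (84.1) at E9.0, from 0 to 432 CPM (53.8) at E9.5 and from 0.252 to 825 CPM (378) at E10.0. Without replicate 4, Maf too had no overlap between E8.5 and E10.0, which makes 5 of the 8 genes (Stab1, Stab2, Mrc1, Fcgrt and Maf) beside 2.55% of all genes. Nothing is read from this count, because replicate 4 was left out for its low values of these same genes.

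**Figure D1:**
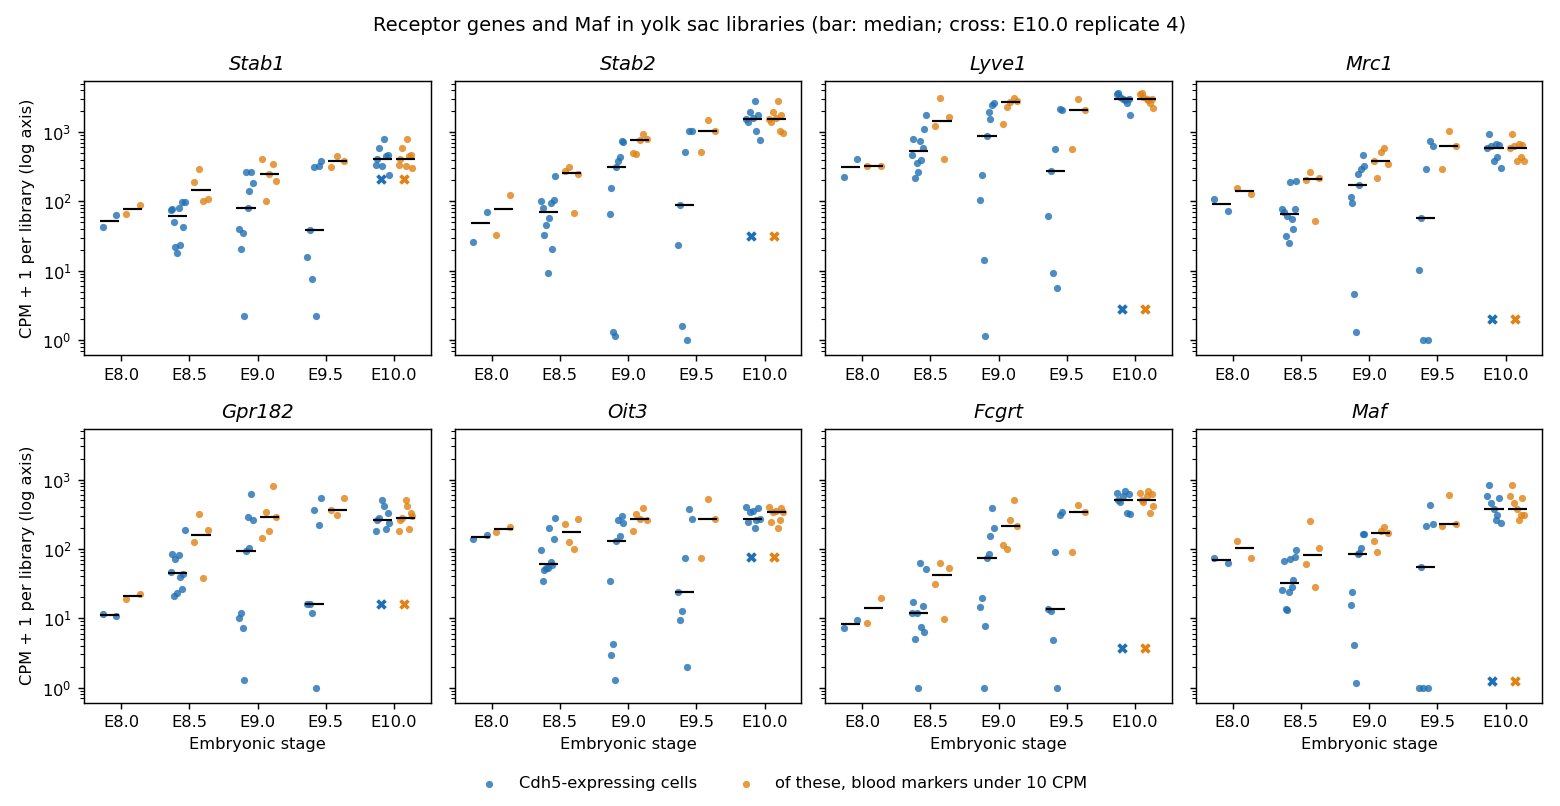
Level of each of the 8 genes in CPM (log axis, 1 panel per gene) in the summed Cdh5-expressing cells of each library, by embryonic stage. Each point is a library, and at E10.0 all 8 genes have their highest median, with Stab2 at 1521 CPM and Fcgrt at 501 CPM, while replicate 4 lies far below the other 8 libraries for 7 genes.

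The E10.0 library that stood apart, replicate 4, held 6 cells that were endothelial by their markers. All 6 had Cdh5, Pecam1, Kdr and Emcn at 10 CPM or more, and Csf1r, Ptprc, Spi1 and Gp9 had 0 counts. Stab1 was at 207 CPM and passed 10 CPM in all 6 cells, whereas Lyve1 (1.76 CPM), Mrc1 (1.01 CPM) and Maf (0.252 CPM) passed it in 0 cells. Oit3 was at 75.3 CPM with 1 cell past 10 CPM, at 349 CPM, and Stab2 at 30.7 CPM with 2 cells past it. Nr2f2, a venous transcription factor, was at 270 CPM with 5 cells past 10 CPM, and the arterial connexin Gja5 at 148 CPM with 1.

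On the log2 scale the fitted difference of E10.0 over E8.5 was 4.57 (SE 0.99) for Fcgrt, 4.10 (SE 0.98) for Stab2, 3.08 (SE 0.91) for Maf and 2.78 (SE 0.67) for Stab1. It was 2.52 (SE 0.89) for Mrc1, 2.03 (SE 0.83) for Gpr182, 1.87 (SE 0.88) for Lyve1 and 1.38 (SE 0.74) for Oit3, with 9 libraries against 10. Without replicate 4 the differences were slightly larger for all 8, between 1.51 (SE 0.76) for Oit3 and 4.74 (SE 0.96) for Fcgrt. The fit over all genes placed 5 of the 8 past its threshold, beside 12.2% of all genes tested in that direction, a count from which nothing is read because the genes were chosen with it known. It was 7 with the group of batch titles as a covariate, a fit chosen after seeing the data. It was 1 in the libraries titled 1 to 21 alone, replicate 4 among them (median difference 3.19), and 8 in those titled 22 to 33 alone (2.78). In that order these fits called 1726 of 13406, 675 of 11156 and 790 of 10275 genes higher. In all cells of each library 5 of the 8 were past the threshold, with a median difference of 3.02, and 8 with the covariate for titles. Those 2 fits called 2113 and 2247 of 13929 genes higher. With depth per cell as a covariate in all cells, 1 of the 8 was past the threshold, beside 800 of 13929 genes. The differences then ran from 0.50 to 3.25, with a median of 1.59. Median depth of the Cdh5-expressing cells was 661331 counts at E8.5 and 417392 counts at E10.0. Within the blood-low cells, with 9 libraries against 4, the differences were smaller for every gene, at 3.60 for Fcgrt, 2.68 for Stab2, 1.87 for Maf, 1.47 for Mrc1, 1.32 for Stab1, 0.73 for Lyve1, 0.71 for Gpr182 and 0.64 for Oit3. There 3 of the 8 were past the threshold beside 2.61% of all genes. Nothing is read from any of these counts of the 8 genes, for the reason given above.

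**Figure D2:**
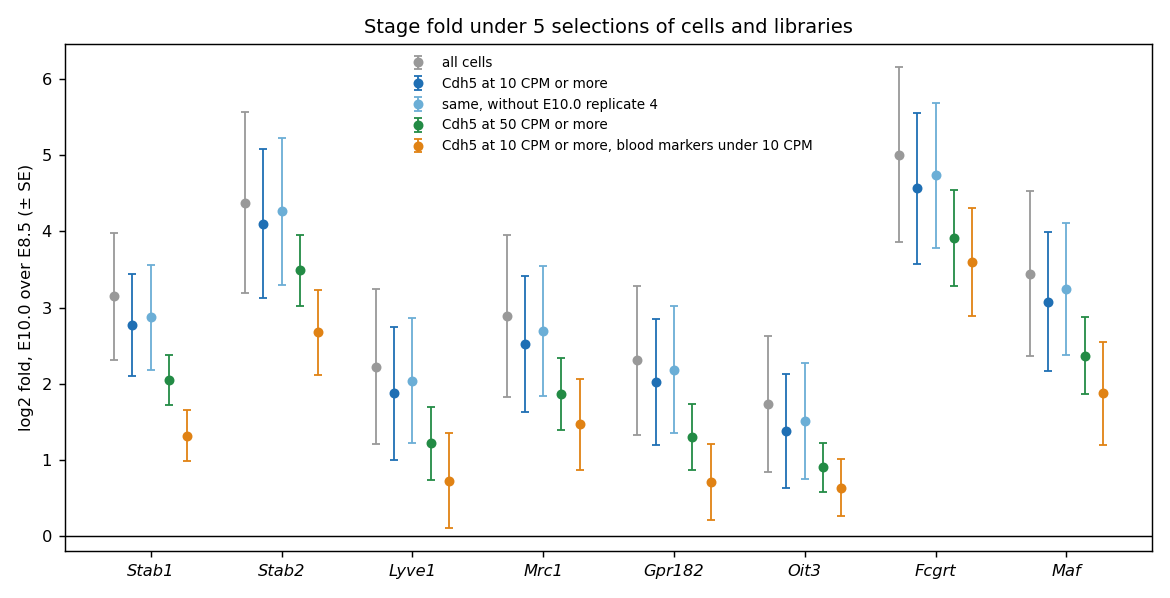
Log2 difference of E10.0 over E8.5 with its SE for each of the 8 genes under 5 selections of cells and libraries. Every value is above 0, Fcgrt and Stab2 have the highest values in Cdh5-expressing cells (4.57 and 4.10), and the blood-low cells give smaller values for all 8.

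Between neighbouring stages the differences were uncertain. From E8.5 to E9.0 the log2 difference was 2.52 (SE 0.91) for Fcgrt and 2.02 (SE 0.90) for Stab2, and from 0.31 to 1.33 for the other 6 genes. From E9.0 to E9.5 it ran from -0.63 (SE 0.95) for Lyve1 to 0.85 (SE 0.94) for Maf, each within 1 SE of 0. From E9.5 to E10.0 it ran from 0.67 (SE 0.90) for Gpr182 to 2.03 (SE 1.01) for Fcgrt. None of the 8 genes (0 of 8) lay higher without overlap in these steps, where 0.00746%, 0.0149% and 0.0746% of all genes did.

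The blood-low cells gave a steadier order of stages for 3 genes. Median Stab1 over libraries was 77.1, 147, 244, 380 and 410 CPM from E8.0 to E10.0, from 2, 4, 5, 3 and 9 libraries. Median Stab2 was 75.9, 257, 765, 1020 and 1521 CPM and median Fcgrt 12.9, 40.9, 213, 337 and 501 CPM in the same order. Each stage's range of Stab2 overlapped that of its neighbours except between E8.5 and E9.0, where the highest E8.5 library (307 CPM) lay below the lowest E9.0 library (477 CPM). Fcgrt also had no overlap there, at up to 61.2 CPM against 97.9 CPM or more, which makes 2 of the 8 genes beside 1.53% of all genes. Lyve1 and Gpr182 came close to their E10.0 medians earlier, with Lyve1 at 321, 1450, 2727, 2104 and 2971 CPM and Gpr182 at 19.7, 156, 288, 368 and 278 CPM. Mrc1 stood at 139, 211, 381, 632 and 579 CPM, Oit3 at 192, 176, 270, 271 and 342 CPM and Maf at 101, 80.3, 171, 230 and 378 CPM.

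Libraries were also compared within groups of batch titles. Stab2 in the libraries titled 1 to 21 had a median of 45.2 CPM in 5 E8.5 libraries and 1452 CPM in 4 E10.0 libraries. In those titled 22 to 33 it ran from 19.6 to 104 CPM in 4 E8.5 libraries and from 1033 to 2774 CPM in 4 E10.0 libraries, with no overlap. Fcgrt in the latter ran from 5.33 to 62.3 CPM and from 331 to 676 CPM. At E9.0, Stab2 ran from 0.152 to 157 CPM in 4 libraries titled 1 to 21. In 4 titled 22 to 33 it ran from 316 to 732 CPM. Fcgrt ran from 0 to 18.5 CPM in the former and from 71.8 to 394 CPM in the latter. These ranges did not overlap at E9.0 for any of the 8 genes. The share of all genes that split this way was not counted, so nothing about the 8 genes is read from it. Blood-low cells numbered 0 or 1 per library in those titled 1 to 21 and 4 or 5 in those titled 22 to 33. The cause of this split was not tested. The libraries titled 34 to 40 had, beside the E8.0 libraries, 1 library each for E8.5, E9.0 and E10.0 and 2 for E9.5, with 25 to 56 Cdh5-expressing cells each. In these 5, Fcgrt was at 49.6 CPM at E8.5, 196 CPM at E9.0, 303 and 337 CPM at E9.5 and 322 CPM at E10.0, and Stab2 at 229, 706, 1050, 1020 and 755 CPM in that order. Lyve1 was at 1769, 2641, 2144, 2104 and 1768 CPM, and Oit3 at 277 CPM in the E8.5 and 267 CPM in the E10.0 library, so for both genes the E10.0 library of this group was no higher than its E8.5 library.

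The 8 genes were found together in single cells. Counting those at 10 CPM or more in each Cdh5-expressing cell, the median cell had 5 of the 8 at E8.0, 7 at E8.5 and 8 at E9.0, E9.5 and E10.0. All 8 were present in 3.77% of these cells at E8.0, 38.5% at E8.5, 61.4% at E9.0, 53.8% at E9.5 and 68.3% at E10.0. At E8.5, 20 of 117 cells had none of the 8, and at E9.0 19 of 88, whereas at E10.0 it was 0 of 82. Among blood-low cells 0 had none at any stage, and the share with all 8 was 4.55%, 58.2%, 91.2%, 77.4% and 70.0% from E8.0 to E10.0. None of the 60 cells with Cdh5 under 10 CPM had all 8 (0 of 60), and their median was 0 genes, at a median depth of 933139 counts against 541150 counts in Cdh5-expressing cells.

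The share of cells with a gene was compared over the stages. Fcgrt passed 10 CPM in 16.98% of Cdh5-expressing cells at E8.0, 46.2% at E8.5, 65.9% at E9.0, 70.5% at E9.5 and 86.6% at E10.0. Stab2 went from 32.1% at E8.0 through 53.0%, 65.9% and 73.1% to 93.9%, and Gpr182 from 33.96% through 61.5%, 68.2% and 67.9% to 82.9%. Oit3 was in 75.5% of cells at E8.0 and in 78.0% at E10.0, with 76.1%, 67.0% and 65.4% between. Stab1, Mrc1 and Maf were in 59.8% to 71.8% of cells from E8.0 to E9.5 and in 97.6%, 86.6% and 85.4% at E10.0, and Lyve1 went from 67.9% through 76.9% at E8.5 and 78.2% at E9.5 to 91.5%. With every cell thinned to 100000 counts, any count of Fcgrt was found in 18.9% at E8.0 and 87.8% at E10.0, against 24.5% and 91.5% unthinned. For Oit3 the thinned shares were 81.1% and 80.5%, against 92.5% and 87.8% unthinned. In cells with Cdh5 under 10 CPM, the thinned share was 3.33% for Fcgrt and 28.3% for Lyve1, the highest of the 8, and 9 of 60 cells had Oit3.

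**Figure D3:**
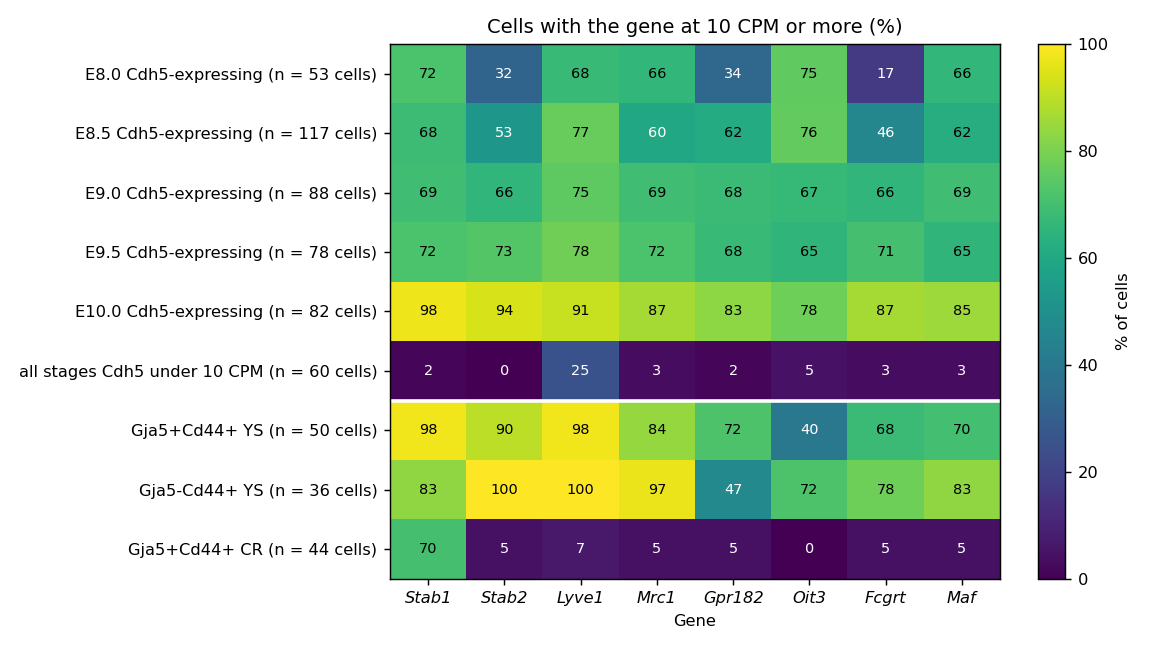
Percent of cells with each of the 8 genes at 10 CPM or more, for Cdh5-expressing cells of each stage and for cells with Cdh5 under 10 CPM. Fcgrt goes from 16.98% at E8.0 to 86.6% at E10.0, whereas Oit3 starts at 75.5% and ends at 78.0%, and Lyve1 is the highest in cells with Cdh5 under 10 CPM, at 25.0%.

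Across Cdh5-expressing cells the 8 genes were most closely tied at E8.5 to E9.5. Over the 28 pairs of genes, the median Spearman correlation of log2(CPM + 1) across cells was 0.46 at E8.0 (53 cells), 0.76 at E8.5 (117 cells), 0.79 at E9.0 (88 cells), 0.79 at E9.5 (78 cells) and 0.44 at E10.0 (82 cells). Cells of a stage share libraries and differ in depth, and the blood-low cells gave lower medians, 0.58 at E8.5 and 0.42 at E10.0. Among the 8222 other genes compared over the 37 library sums, those most like Stab1 were Calcrl (rho 0.96), Col4a1 (0.95) and Sparc (0.95). For Stab2 they were Tspan7 (0.92), Gimap4 (0.91) and Clec14a (0.91), and for Lyve1 Gimap4 (0.93), Tspan7 (0.92) and Sepp1 (0.91). Mrc1 was most like Lipa, Lepr and Colec12 (all 0.91), and Gpr182 like Plvap (0.93), Serpinh1 (0.90) and Gimap4 (0.89). Oit3 came out next to Sepp1 (0.94), Colec12 (0.92) and Sox18 (0.90), Fcgrt next to Fmo1 (0.91), Add3 (0.90) and Clec14a (0.89), and Maf next to Gimap4 and Sepp1 (both 0.94) and Lepr (0.93). The libraries behind these values share stage and the share of blood cells.

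Within libraries, none of the 8 genes (0 of 8) passed the test between Gja5-positive and Gja5-negative endothelium, by edgeR or by DESeq2, and Oit3 alone had an unadjusted p under 0.05. Gja5, the gap junction gene of arterial endothelium, was set at 10 CPM to divide the Cdh5-expressing cells of 6 libraries with 3 or more cells on both sides, namely E8.5 replicate 10, E9.0 replicate 9, E9.5 replicates 9 and 10 and E10.0 replicates 8 and 9. Other arterial genes followed the division, and 5 of 12 tested rose in Gja5-positive cells by edgeR's quasi-likelihood test with Benjamini-Hochberg adjustment over 10019 genes, Gja4 (log2 difference 3.96), Hey1 (3.66), Efnb2 (2.11), Unc5b (1.86) and Sox17 (1.51). In all, edgeR called 0.15% of genes, all of them higher in Gja5-positive cells, and DESeq2 called 129 of 10019 genes.

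Stab2 ran from 147 to 1722 CPM (median 948) in Gja5-positive cells and from 240 to 1792 CPM (862) in Gja5-negative cells of the same 6 libraries. The log2 difference was -0.10, with a 95% interval from -0.40 to 0.21 (adjusted p = 0.98 by edgeR), and the gene was higher in 3 libraries and lower in 3. Lyve1 ran from 1472 to 3143 CPM (2368) in positive cells and from 1660 to 3773 CPM (2160) in negative cells, a difference of -0.01 with an interval from -0.39 to 0.37. Both ranges overlapped almost fully for each of these receptors. For Stab1 the log2 difference was 0.04 (-0.41 to 0.50), for Mrc1 -0.19 (-0.69 to 0.31), for Gpr182 0.20 (-0.26 to 0.67), for Fcgrt -0.17 (-0.58 to 0.23) and for Maf -0.06 (-0.43 to 0.31). These intervals leave out a log2 difference of 1 in either direction for all 7 genes.

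Oit3 was the only one of the 8 with an interval away from 0. It ran from 162 to 542 CPM (196) in Gja5-positive cells and from 258 to 512 CPM (307) in Gja5-negative cells, with a log2 difference of -0.55 (-1.002 to -0.10). It was lower in Gja5-positive cells in 5 of the 6 libraries, and the difference did not pass the adjustment over all genes (edgeR, unadjusted p = 0.034, adjusted p = 0.83). With Gja5 at 50 CPM or more as the division, or any Gja5 count against none, all 8 differences were negative, from -1.11 to -0.03 and from -1.18 to -0.51. With any Cdh5 count as the selection 7 of the 8 were positive, from -0.30 to 0.61 with a median of 0.41, and without E10.0 replicate 8 it was 5 of 8. None of the 8 was called in any of these fits (0 of 8). In that order they called 31 of 9988, 0 of 9156, 9 of 9697 and 19 of 10481 genes, so nothing is read from the 0.

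A division by Runx1, the transcription factor of emerging blood, gave larger differences. Cdh5-expressing cells with Ptprc under 10 CPM were divided at 10 CPM of Runx1 in 8 libraries, both at E8.0, E8.5 replicates 1, 2, 3 and 10, E9.0 replicate 9 and E10.0 replicate 9. All 8 genes were on average lower in Runx1-positive cells, and 1 of them, Gpr182, passed the test, beside 0.758% of 9764 genes that fell. Gpr182 ran from 1.23 to 88.0 CPM (median 12.7) in Runx1-positive cells and from 14.5 to 339 CPM (150) in Runx1-negative cells. It was lower in positive cells in 8 of 8 libraries, by 2.79 on the log2 scale as fitted (-2.79, SE 0.62, edgeR adjusted p = 0.048).

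The call for Gpr182 rested on single libraries. It was lost on leaving out E10.0 replicate 9 (adjusted p = 0.13), E8.0 replicate 1 (0.077), E8.5 replicate 1 (0.13), E8.5 replicate 3 (0.12) or E9.0 replicate 9 (0.075) in turn, and without the library block (0.060). With Cdh5 at 50 CPM or more the difference was -1.45 (edgeR adjusted p = 0.46), and DESeq2 on the same cells as the first fit gave 2.1e-06.

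The other 7 genes did not pass edgeR's test after adjustment. Stab2 ran from 0 to 95.9 CPM (60.8) in Runx1-positive and from 27.8 to 1098 CPM (212) in Runx1-negative cells, with a log2 difference of -2.78 (SE 0.85, adjusted p = 0.094), and was lower in 8 of 8 libraries. Stab1 ran from 1.59 to 113 CPM (28.9) and from 58.2 to 350 CPM (148), a difference of -2.44 (SE 0.69, adjusted p = 0.080), and was also lower in all 8. Oit3 at -2.45 (SE 0.78) was lower in 8 libraries, Maf at -2.44 (SE 0.81) and Mrc1 at -2.11 (SE 0.67) in 7, and Fcgrt at -1.76 (SE 0.88) and Lyve1 at -1.49 (SE 0.84) in 6. By DESeq2, with no filter on low counts, or with any Cdh5 count as the selection, Stab1, Stab2, Mrc1, Oit3 and Maf also passed, 6 of the 8 with Gpr182, with DESeq2 adjusted p-values from 2.1e-06 for Gpr182 to 0.020 for Maf. In that order these fits called 949 of 9764, 499 of 16058 and 800 of 9624 genes lower. The 2 libraries in which Lyve1 was higher in Runx1-positive cells were both from E8.0.

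Levels of blood and endothelial markers differed across the Runx1 division. The summed macrophage markers had a median of 194 CPM in Runx1-positive and 25.7 CPM in Runx1-negative cells, with Adgre1, C1qa and Timd4 at 0 in both, and the erythroid markers 1547 and 311 CPM. Cdh5 itself was lower in Runx1-positive cells in 7 of 8 libraries, with a median of 149 against 293 CPM. The summed pan-endothelial markers had a median of 2036 CPM in Runx1-positive and 4986 CPM in Runx1-negative cells. The median log2 difference was -1.58 for 13 pan-endothelial, -1.69 for 11 arterial and -2.51 for 5 venous genes, beside -2.44 for the 8 genes and 0.00 for all genes, and edgeR called 0 of 13, 1 of 11 and 1 of 5 genes of these lists lower. Called blood genes were Fcer1g (log2 difference 4.52), Spi1 (4.67) and Gata1 (5.02). With Cdh5 at 50 CPM or more, in 5 libraries, none of the 8 genes was called (0 of 8), beside 1 of 9654 genes. The differences there ran from -1.45 to 0.18 with a median of -0.86, and those for Lyve1 (0.18) and Fcgrt (0.07) were near 0. In the blood-low cells, 2 libraries had 3 or more cells on both sides. None of the 8 genes was called there either (0 of 8), beside 1 of 8040 genes, and the differences ran from -1.998 to 2.09. With so few calls over all genes, nothing is read from these counts of 0. The part of blood cells in the Runx1 differences was not tested.

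**Figure D4:**
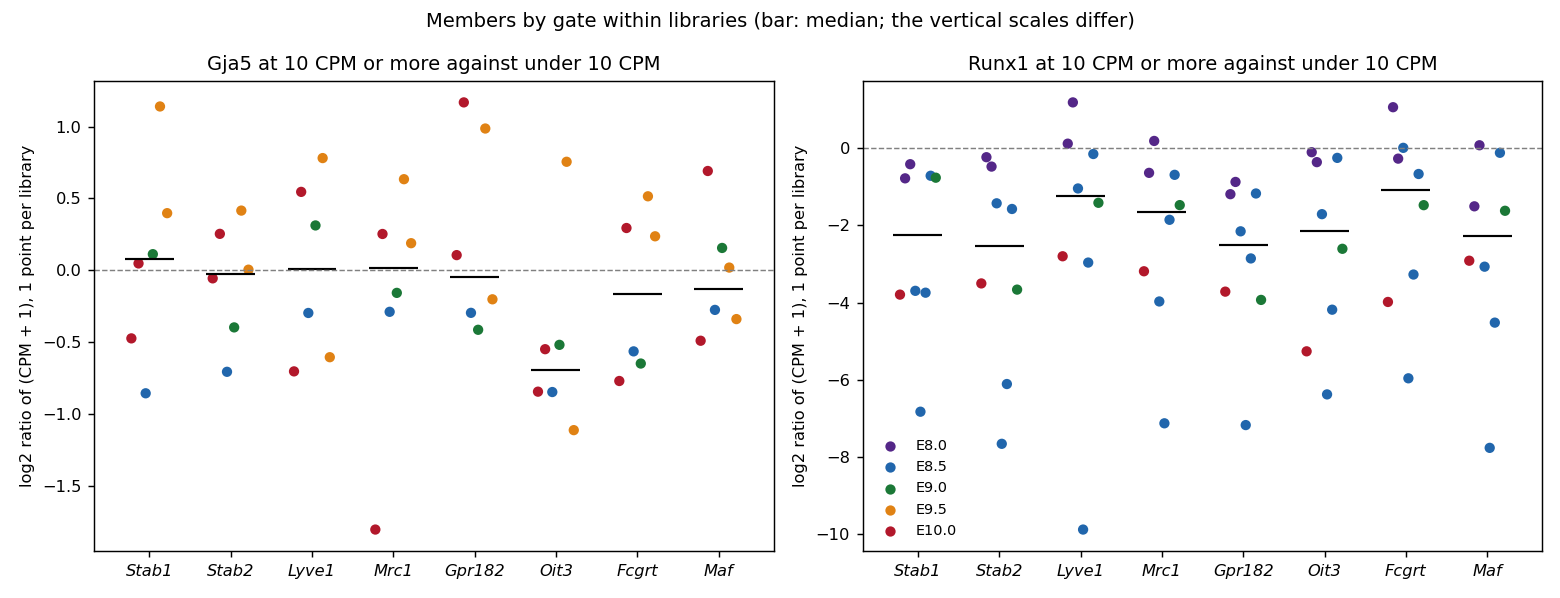
Log2 ratio of CPM + 1 of each of the 8 genes within libraries, Gja5-positive over Gja5-negative cells in 6 libraries and Runx1-positive over Runx1-negative cells in 8 libraries. Each point is a library and each bar a median, and the vertical scales differ. The Gja5 ratios lie around 0, with Oit3 below 0 in 5 of 6, whereas Gpr182, Stab1, Stab2 and Oit3 are below 0 in all 8 libraries divided by Runx1.

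In the sorted samples, 7 of the 8 genes were far higher in yolk sac cells than in CR cells, and Stab1 was the exception. Each group is 1 sample, so no test was made, and intervals cover counting error only. The sort itself could be read from the counts, with Gja5 at 1273 CPM in Gja5+Cd44+ YS, 0.120 CPM in Gja5-Cd44+ YS and 768 CPM in Gja5+Cd44+ CR cells, and Cdh5 at 1216, 287 and 727 CPM. Sums were taken over 11418168, 8344180 and 9144406 counts.

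Stab2 was at 492 CPM in Gja5+Cd44+ YS cells, 570 CPM in Gja5-Cd44+ YS cells and 0.875 CPM in CR cells, where it had 8 counts. Gja5+Cd44+ YS over CR was a fold of 562 with a 95% interval from 285 to 1302. Lyve1 was at 1010, 1139 and 11.9 CPM in the same order, and 78.9% of its 109 CR counts came from 1 cell. The YS to CR fold was 84.7 (70.2 to 103) for Lyve1 and 338 without the cell with the most counts in each sample.

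Mrc1 was at 295, 289 and 0.328 CPM, with 3 counts in CR cells and a fold of 900 (308 to 4365). Oit3 was at 55.9, 132 and 0.219 CPM, with 2 counts in CR cells and a fold of 255 (70.4 to 2114). In CR cells both were at or under 3 counts, the limit that a count of 0 allows, and as a mean over cells the folds were 152 for Mrc1 and 714 for Oit3. Fcgrt was at 146, 178 and 2.30 CPM, with a fold of 63.6 (41.5 to 103) in sums and 23.6 as a mean over cells. Maf was at 230, 247 and 6.01 CPM, and Gpr182 at 102, 86.4 and 7.11 CPM, with folds of 38.2 (29.2 to 50.8) and 14.3 (11.2 to 18.7). Without the top cell of each sample these were 230 for Maf and 35.1 for Gpr182, and in the cells free of blood markers 147 and 6.17. Among CR cells, a single cell held 87.3% of the Maf counts and a single cell 64.6% of the Gpr182 counts.

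Stab1 was at 377 CPM in Gja5+Cd44+ YS, 208 CPM in Gja5-Cd44+ YS and 108 CPM in CR cells, a YS to CR fold of 3.48 (3.25 to 3.74). It passed 10 CPM in 70.5% of CR cells, whereas the other 7 genes did so in 0% (Oit3) to 6.82% (Lyve1) of them. With cells thinned to 100000 counts, 37 YS and 32 CR cells remained, and Stab1 was found in 97.3% (exact 95% interval 85.8 to 99.9) and 81.3% (63.6 to 92.8), against 49 of 50 and 33 of 44 cells unthinned. Stab2 was found in 97.3% and 9.38% (1.98 to 25.0) of them. The 7 genes past 4-fold compare with 5.34% of the 9390 genes at 10 CPM or more in either sample. They were 7 also with the mean over cells, without the top cell, and with only the cells free of blood markers, in which Stab2 had 0 counts in CR.

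All 8 genes reached 10 CPM in 12 of 50 Gja5+Cd44+ YS cells and 13 of 36 Gja5-Cd44+ YS cells, and in 0 of the 44 CR cells. Leaving Stab1 aside, 33 of the 44 CR cells had none of the other 7, and no CR cell had more than 2. Blood and tissue markers differed between these samples. Spi1 passed 10 CPM in 1 of 50, 14 of 36 and 24 of 44 cells in the order above, and Csf1r in 0, 3 and 0. Summed erythroid markers were at 23323, 11724 and 134 CPM and mesenchymal markers at 330, 1229 and 16.5 CPM. Among the 23, 10 and 20 cells with blood marker genes, among them Csf1r, Ptprc, Spi1 and Gp9, each under 10 CPM, Stab2 was at 546, 1115 and 0 CPM, Lyve1 at 942, 2527 and 0.864 CPM and Stab1 at 374, 311 and 170 CPM.

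**Figure D5:**
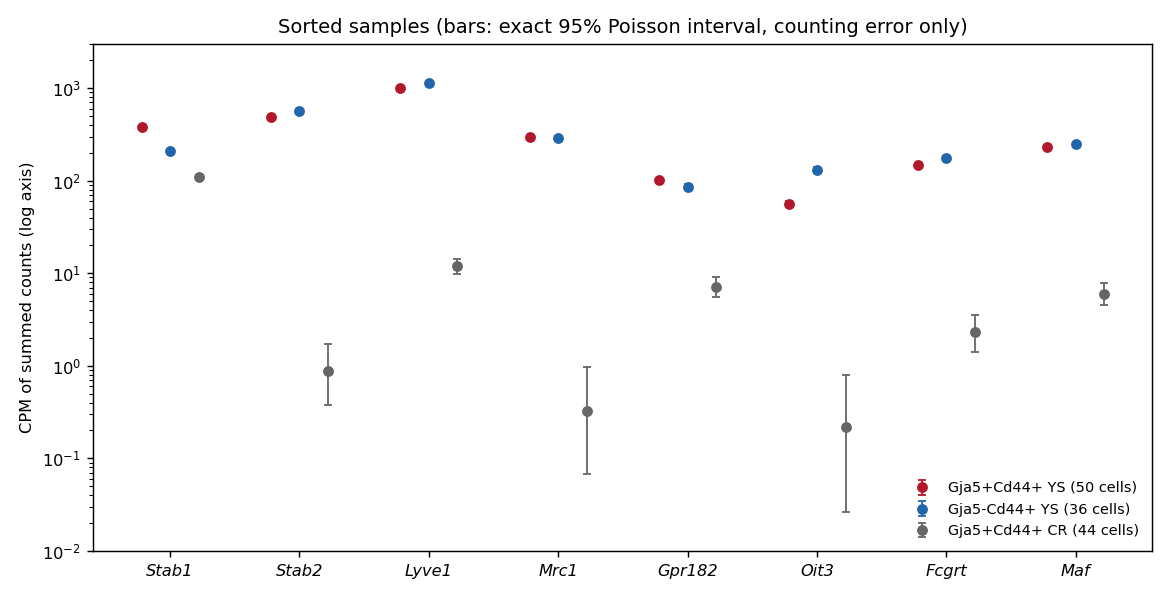
CPM of each of the 8 genes in the summed cells of the 3 sorted samples on a log axis, with exact 95% Poisson intervals for counting error. Stab1 differs 3.48-fold between Gja5+Cd44+ YS and CR cells, and the other 7 genes from 14.3-fold (Gpr182) to 900-fold (Mrc1) in these sums; as a mean over cells Mrc1 differs 152-fold.

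Between the 2 yolk sac sorts none of the 8 genes (0 of 8) differed by 4-fold, beside 7.07% of 9395 genes that were that much higher in Gja5-Cd44+ and 8.57% that were that much lower. Oit3 was 2.36-fold (2.14 to 2.61) higher in Gja5-Cd44+ cells, and stayed higher with the mean over cells (3.86), without the top cell (3.02) and with only blood-marker-free cells (4.17). Stab1 stood at a fold of 0.551 (0.521 to 0.583) in sums and at 1.09 as a mean over cells. The other 6 genes had folds from 0.848 for Gpr182 to 1.22 for Fcgrt in sums. As a mean over cells the folds were 2.12 for Maf, 1.93 for Stab2, 1.67 for Lyve1, 1.61 for Fcgrt, 1.49 for Mrc1 and 0.713 for Gpr182, and without the top cell Gpr182 was at 0.337. In the blood-marker-free cells, 23 against 10, these 6 had folds from 1.66 for Fcgrt and Maf to 2.68 for Lyve1. Of the arterial markers, 13 of 15 were at least 4-fold lower in Gja5-Cd44+ YS cells.

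Other endocytic genes were counted for comparison in the Cdh5-expressing stage cells, E10.0 over E8.5. All comparison lists were chosen with earlier results of these data known, so their counts and p-values are given as descriptions. Of all 13406 genes in this fit, 1630 rose and 1667 fell. Of 12141 genes in the fit of the blood-low cells, 317 rose and 372 fell. Of 25 clathrin and endolysosomal genes, 14 rose and 0 fell (edgeR adjusted p under 0.05), with a median log2 difference of 0.92 beside 0.07 for all genes. Examples were Ctsb, a lysosomal protease (2.10, SE 0.36, adjusted p = 5.8e-05), Lamp2, a lysosomal membrane protein (1.51, SE 0.25, adjusted p = 4.0e-05), Ap2a2, an adaptor of coated pits (1.37, SE 0.26), and Cltc, the clathrin heavy chain (1.16, SE 0.23). In the blood-low cells 7 of the 25 rose and 0 fell. Cltc and Ap2a2 are used by every cell type, and the Gja5 division called none of these 25 genes (0 by edgeR).

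Of 20 other scavenger and endocytic receptors tested, 6 rose and 3 fell, with a median of 0.73, and in the blood-low cells 4 of 18 rose and 2 fell. Of all genes tested, 12.2% rose in the former fit and 2.61% in the latter. Cd93 had a log2 difference of 2.54 (SE 0.53), the fatty acid receptor Cd36 5.42 (SE 1.15) and the chemokine scavenger Ackr2 6.59 (SE 1.53), whereas the transferrin receptor Tfrc, abundant in erythroid cells, fell by 2.48 on the log2 scale (-2.48, SE 0.60). Cd36 also differed between sorts, at 114 CPM in Gja5+Cd44+ YS, 59.4 CPM in Gja5-Cd44+ YS and 1.86 CPM in CR cells. Of 13 such receptors at 10 CPM or more, 4 were at least 4-fold higher in YS, with Colec12, Tfrc and Ackr4 beside Cd36. Of all 9390 genes compared, 5.34% were that much higher. Of the 25 clathrin and endolysosomal genes, 0 were at least 4-fold higher in YS, and 0 of the 14 pan-endothelial genes were.

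Among 17 ligands and partners of the 8 genes, 5 rose from E8.5 to E10.0 and 0 fell, with a median of 0.88, beside 12.2% of all genes that rose. B2m, the light chain that pairs with Fcgrt, had a log2 difference of 2.78 (SE 0.30, edgeR adjusted p = 3.4e-08), from a median of 147 CPM at E8.5 to 1120 CPM at E10.0 with no overlap of libraries. Cxcl12 (6.38, SE 1.69) and Cxcl10 (6.24, SE 1.68), chemokines bound by Gpr182, and Tmsb4x (1.19, SE 0.26) rose as well. In the sorted cells B2m was at 434, 363 and 395 CPM, with no such gap between YS and CR as Fcgrt had. Of 13 other sinusoidal and lymphatic genes, 2 rose, Ehd3 (4.13, SE 0.51) and Dnase1l3 (3.61, SE 1.22), and 2 fell, Reln (-10.38, SE 2.16) and Wnt2 (-3.98, SE 1.46), with a median of 0.30. Ehd3, an endocytic recycling protein, was at 258 CPM in Gja5+Cd44+ YS, 114 CPM in Gja5-Cd44+ YS and 6.34 CPM in CR cells. In the stage cells 11 of 13 pan-endothelial, 15 of 15 arterial and 4 of 5 venous genes rose in the same fit, and 6 of 8 erythroid, 5 of 8 megakaryocyte and 4 of 11 macrophage genes fell. In the blood-low cells those counts were 8, 4 and 0 rising, and 1 of 7, 1 of 4 and 0 of 4 falling. Of all 12141 genes tested there, 317 rose and 372 fell.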

How the data were processed

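Single-cell RNA of mouse yolk sac cells was measured in 40 stage libraries and 3 sorted samples. The deposited values are whole-number counts of each gene symbol in each cell, made by the authors from reads aligned to mm10, per the submitters' processing notes. The sources used here do not give the aligner, the filter on cells or whether molecular identifiers were collapsed. In the sorted samples 95 rows of spike-ins and other added sequences were left out of all sums. Identical cell columns were looked for, with 0 found.

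Counts were summed over the chosen cells of each library, the unit of replication. Libraries are numbered within a stage in the order of their batch titles, and groups were taken from the labels. Cells with Cdh5 at 10 CPM or more were used, in libraries with 3 or more such cells. Sums were tested with edgeR 4.0.16 in R 4.3.3 (TMM scaling, filterByExpr, quasi-likelihood test), with all stages in 1 fit, and with the library as a block for the Gja5 and Runx1 divisions, whose sides come from the same library. P-values were adjusted over all genes by Benjamini-Hochberg, at 0.05. The procedure was tested on simulated counts. Alternatives included DESeq2 1.42.0, RLE scaling, no filter, other cell thresholds, leaving out libraries, and cells thinned to 100000 counts. Intervals of fitted differences are 1.96 SE on each side. Sorted samples, 1 per group, have exact Poisson and Clopper-Pearson intervals at 95%, which cover counting error only, and 3 counts stand for the limit that a count of 0 allows. Thinning left out 37 sorted cells and 0 stage cells.

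The 8 genes and all comparison lists were chosen with earlier results of these data known. From each list up to 4 genes past the test with the smallest adjusted p are named, and for each of the 8 genes the 3 others with the highest Spearman rho among genes with a mean of 10 CPM or more. Positions are from GENCODE M21. The full set of genes used to select cells low in blood markers is not reported here.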

Additional observations from a re-analysis of the deposited data

Results flagged for a closer look

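In 6 of 48 groups of libraries examined, 1 library lay far from the others. The nominal rate of the rule is about 1 group in 20. Because the groups share libraries, no excess over that rate is read from the count. The rule did not flag E10.0 replicate 4, which was set apart above for its low values of these genes. Stab2 at E8.5 was at 229 CPM in replicate 10, the largest library of that stage, against 104 CPM in the next. Gpr182 in the same library was at 188 CPM, against 84.3 CPM in the next. At E9.0, replicate 8 had 626 CPM of Gpr182 and 394 CPM of Fcgrt, against 287 and 196 CPM in the next library. The log2 ratio of CPM + 1 of Oit3 in Gja5-positive over Gja5-negative cells was 0.75 in E9.5 replicate 9 and -0.52 or lower in the other 5 libraries. For Lyve1 in Runx1-positive over Runx1-negative cells the log2 ratio was -9.87 in E8.5 replicate 2, from 2.29 and 3087 CPM, and -2.96 in the next.

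Lyve1 also differed in direction between stages in the Runx1 division. The log2 ratio was 0.11 and 1.18 in the E8.0 libraries, and -9.87, -2.96, -1.05 and -0.15 in the E8.5 libraries. This difference between stages was not tested.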

How the results depend on the processing

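The direction of all 8 stage differences (E10.0 over E8.5) was the same under every alternative run. Their size was not: with depth as a covariate in all cells their median was 1.59 against 3.02. The count of genes called between these stages was 4317 in all cells and 1968 with depth as a covariate. In Cdh5-expressing cells it was 3297, against 1610 in batches 1 to 21 alone, 1574 in batches 22 to 33 alone, 689 in blood-low cells, 670 in blood-low cells with Cdh5 at 50 CPM or more, and 2868 to 3570 with 1 library left out. The Gja5 division called 15 genes with the replicate block and 9 without it, 129 by DESeq2, 50 with no filter, 9 with any Cdh5 count, 7 in blood-low cells, 31 with Gja5 at 50 CPM or more, 3 with thinned cells, and 3 to 19 with 1 library left out. With any Gja5 count against none it called 0 by edgeR, with 338 genes at an unadjusted p under 0.05. The Runx1 division called 123 genes with the replicate block and 94 without it, 1451 by DESeq2, 781 with no filter, 1300 with any Cdh5 count, 1 with Cdh5 at 50 CPM or more, 1 in blood-low cells, 1 with both, 2 with any Runx1 count against none, and 3 to 374 with 1 library left out. No paired analysis was possible between stages because the labels give no replicate numbers. A fit with the group of batch titles as a covariate called 4475 genes in all cells. The causes were not tested. Between the yolk sac sorts, 3 folds of Gja5-Cd44+ over Gja5+Cd44+ changed direction, Stab1 to 1.09 as a mean over cells, Lyve1 to 0.874 without the top cell and Gpr182 to 1.84 in blood-marker-free cells. The alternatives on batches, on Cdh5 with blood markers and on blood-marker-free sorted cells were chosen after seeing the data. Thin libraries limit the stage comparison, with 5 cells in the smallest.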
